A study of Arabidopsis thaliana with 8 samples.

Results

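Genes that build and space stomata in Arabidopsis were followed through the histone marks of a cell culture and of leaf. They were taken by gene identifier and are 10 of the 27213 protein-coding genes in the files. They comprise the basic helix-loop-helix (bHLH) transcription factors SPCH, MUTE, FAMA, ICE1 and SCRM2, the secreted peptide EPF2, the receptor-like protein TMM, and the ERECTA family receptor kinases ER, ERL1 and ERL2. Chromatin was immunoprecipitated with antibodies to H3, H3K27me3, H3K4me3 and H3K9me2 and sequenced, with 1 library per antibody in each sample type and 8 in all. The culture was a wild-type Col-0 cell line in suspension, kept in B5 medium with 1.1 mg/l of the synthetic auxin 2,4-D and 3% sucrose at 23 °C, subcultured every 7 d and fixed in 1% paraformaldehyde for 15 min. The leaf sample was wild-type Col-0 grown on MS agar plates, and how it was fixed is not stated. A culture of this kind is 1 established line without organs, and leaf is a mixture of cell types.

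Stomata are the pores through which a leaf exchanges gas, each bounded by a pair of guard cells. SPCH starts the lineage in young epidermal cells, MUTE ends its dividing phase, and FAMA limits the last division and gives guard cell identity, each as a dimer with ICE1 (also called SCREAM) or SCRM2. EPF2 is secreted by early lineage cells and signals through ERECTA family kinases with TMM, which lower SPCH activity by way of a MAP kinase cascade. ER has a wider role in stem and organ growth. H3K27me3 is laid down by Polycomb complexes on silent developmental genes, H3K4me3 lies at the start of transcribed genes, and H3K9me2 covers transposable elements together with DNA methylation.

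Nuclear reads numbered 3116646 for H3 and between 3261618 and 5649143 for the 3 marks in the culture, against 1449274 for H3 and between 1811213 and 2160614 in leaf. A gene had a median of 35 H3 reads in the culture and 19 in leaf. All values below are reads over the whole annotated gene, and the level of a mark is log2 of mark over H3, each per 1000000 nuclear reads after adding 1. A change is the level in the culture minus that in leaf. It was called a rise or fall where it was at least 2-fold and its 95% interval excluded 0, and a gene was called marked where its level was at least 1. There are no replicates, so no test between culture and leaf was possible and every interval covers counting error only. Calls needed 20 mark reads over both libraries and 10 H3 reads in each. That left 8 of the 10 genes for H3K27me3 and H3K4me3 and 4 for H3K9me2. For each mark, shares and percentiles of all genes are over the protein-coding genes that met this minimum. MUTE had only 7 leaf H3 reads and EPF2 only 5 H3 reads in each sample. ICE1 and SCRM2 are paralogues, as are ER, ERL1 and ERL2, and how reads shared by such copies were assigned is not stated.

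The 3 bHLH factors that drive the lineage carried dense H3K27me3 in the culture and in leaf. SPCH (AT5G53210, chr5:21586606-21588941, TAIR10) had 573 H3K27me3 and 39 H3 reads in the culture, against 225 and 20 in leaf. Its level was 2.98 (95% interval 2.52 to 3.45) in the culture and 2.85 (2.21 to 3.50) in leaf. That put SPCH at percentile 97.2 of all genes tested in the culture and 94.8 in leaf. FAMA (AT3G24140, chr3:8715236-8718211) had 1749 H3K27me3 and 81 H3 reads in the culture, against 317 and 19 in leaf. The FAMA level was 3.56 (3.24 to 3.88) in the culture and 3.41 (2.76 to 4.07) in leaf, at percentile 99.1 in the culture and 98.2 in leaf. For both genes the intervals of culture and leaf overlapped. The change was 0.13 (-0.66 to 0.93) at SPCH and 0.14 (-0.58 to 0.87) at FAMA, so a difference within those bounds was not detectable at this depth. MUTE (AT3G06120, chr3:1846531-1848230) had 430 H3K27me3 and 30 H3 reads in the culture, against 162 and 7 in leaf. The MUTE level of 2.94 in the culture and 3.77 in leaf rests on those 7 reads and was not called, with a change of -0.83 (-1.98 to 0.32). Per kb and 1000000 reads, H3K27me3 over MUTE was 44.8 in the culture and 44.1 in leaf, and over SPCH it was 43.4 in the culture and 44.6 in leaf. Over FAMA it was 104.1 in the culture and 49.3 in leaf, where H3 was also higher in the culture. Without H3 as divisor the FAMA change was 1.07 (0.90 to 1.25), which passed as a rise. Leaf is a bulk sample, so a mark on fewer cells and a weaker mark on each cell cannot be told apart.

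SPCH and FAMA were thus the 2 marked genes among the 8 that could be called, in the culture, where 11.9% of all genes tested were marked, and again in leaf, where 19.4% were. No member rose in H3K27me3, against 2.76% of all genes, and 1 of 8 fell, against 26.7% of all genes. With only 8 genes, these counts are too few to set against those shares. The median change of the 8 genes was 0.01, beside -0.57 over 19845 genes tested. FAMA stood above SPCH in the culture by 0.57 (0.01 to 1.13), and in leaf they did not differ beyond counting error (0.56, -0.35 to 1.48). Below SPCH there was a gap of 2.68 (2.08 to 3.27) to ER, the next in the culture, and of 2.17 (1.35 to 2.99) to ERL2, the next in leaf.

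**Figure D1:**
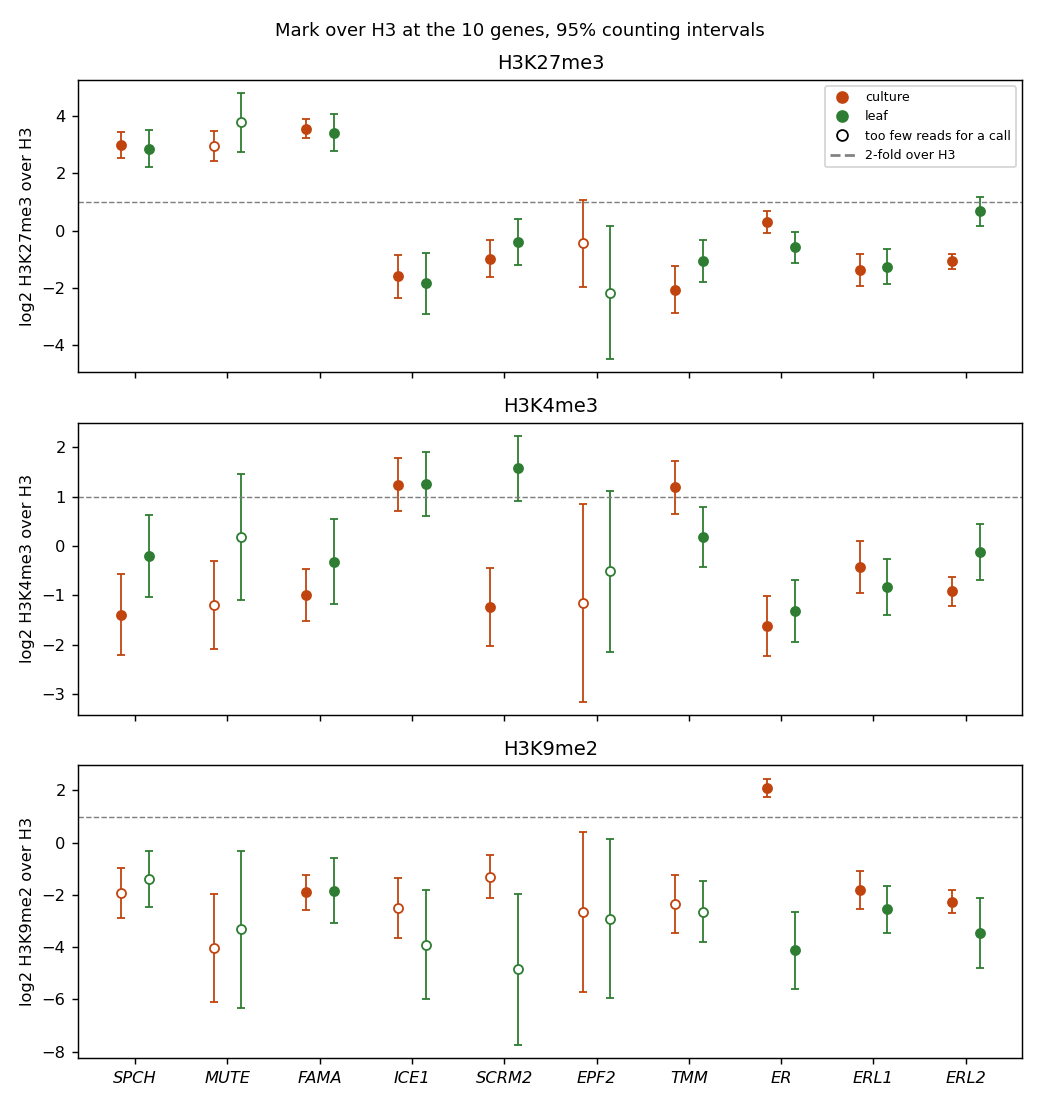
Level of each mark (log2 of mark over H3, y axis) at the 10 genes in culture (orange, left of each pair) and leaf (green), with 95% counting intervals; open points had too few reads for a call and the dashed line is 2-fold over H3. SPCH, MUTE and FAMA stand above the line in H3K27me3 in both samples, and ER stands above it in H3K9me2 in the culture alone, at 2.11 against -4.13 in leaf.

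Their dimer partners did not share the mark. ICE1 (AT3G26744, chr3:9832689-9835247) had 22 H3K27me3 and 37 H3 reads in the culture, against 9 and 23 in leaf, at a level of -1.58 in the culture and -1.84 in leaf. A transposable element is annotated inside ICE1, and its reads can count in both. SCRM2 (AT1G12860, chr1:4384353-4386610) had 36 H3K27me3 and 39 H3 reads in the culture, against 25 and 22 in leaf, at a level of -0.97 in the culture and -0.40 in leaf. For neither did the change pass, at 0.26 (-1.04 to 1.56) for ICE1 and -0.57 (-1.61 to 0.46) for SCRM2.

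Before and after are used here in the order of the chromosome, not of transcription, and what adjoins each gene is given as values only. The 7049 bp intergenic interval after SPCH carried 847 H3K27me3 and 55 H3 reads in the culture, against 206 and 39 in leaf, a level of 3.06 in the culture and 1.80 in leaf and a change of 1.27 (0.64 to 1.89). The mark over this interval was thus higher in the culture, while over the gene itself culture and leaf did not differ beyond counting error. AT5G53220, the gene beyond that interval, had a level of -2.01 in the culture and -1.63 in leaf. Next to FAMA, the gene before (AT3G24130) was at 3.11 in the culture and 2.72 in leaf, while the gene after (AT3G24150) was at -1.26 in the culture and 0.97 in leaf. The interval before MUTE held 107 H3K27me3 reads in the culture and 50 in leaf, but too few leaf H3 reads for a call. The genes on either side of MUTE had levels below 0 in both samples.

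**Figure D2:**
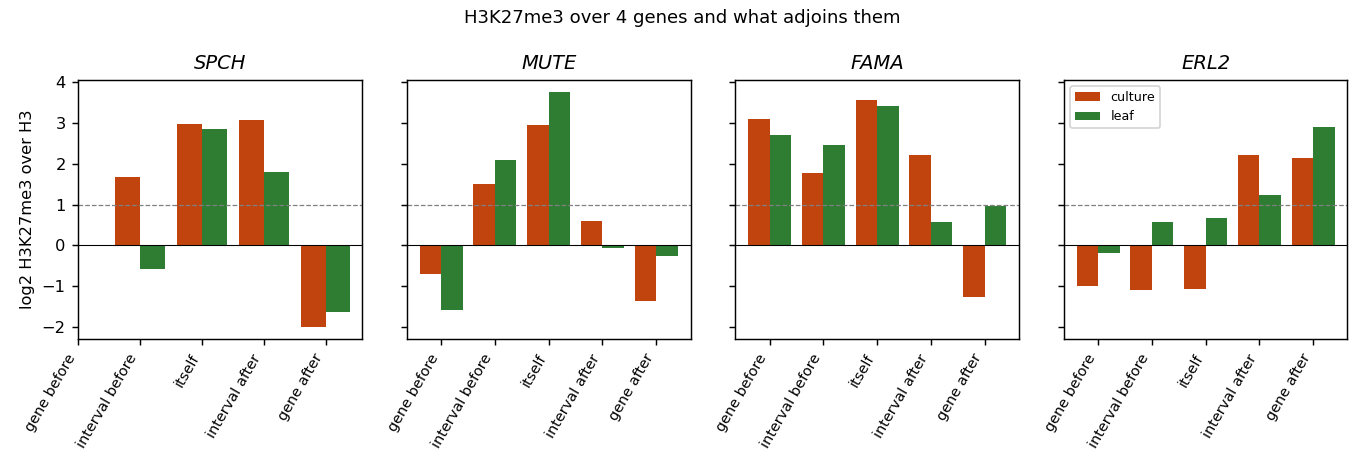
Level of H3K27me3 (log2 over H3, y axis) over SPCH, MUTE, FAMA and ERL2 and over the intergenic intervals and genes before and after each, in culture (orange, left) and leaf (green); bars carry no error, the dashed line is 2-fold over H3, and positions with fewer than 3 H3 reads are not drawn. The interval after SPCH reaches 3.06 in the culture and 1.80 in leaf, and at ERL2 the bars of the gene itself point down in the culture and up in leaf.

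H3K4me3 divided the bHLH genes in another way. ICE1 had 99 H3K4me3 reads in the culture and 81 in leaf, was marked at 1.24 (0.70 to 1.78) in the culture and 1.25 (0.60 to 1.91) in leaf, with a change of -0.02 (-0.87 to 0.83). Its paralogue SCRM2 had 18 reads in the culture and 97 in leaf, at similar H3 (39 in the culture and 22 in leaf). The SCRM2 level was -1.23 (-2.02 to -0.44) in the culture and 1.57 (0.92 to 2.23) in leaf. SCRM2 therefore fell by 2.80 on the log2 scale (-3.83 to -1.78), and the fall passed under each alternative tried. Its level was at percentile 7.02 of the genes tested in the culture and 88.6 in leaf. SCRM2 reached the read minimum through leaf, so nothing is read from its call or percentiles beyond the counts themselves. SPCH had 16 H3K4me3 reads in the culture and 25 in leaf, and fell by 1.18 (-2.35 to -0.02), a call lost with a pseudocount of 5 (-0.97) or a 3-fold threshold. FAMA had 45 and MUTE 14 H3K4me3 reads in the culture, against 22 and 12 in leaf. The change was -0.68 (-1.68 to 0.33) for FAMA and -1.39 (-2.94 to 0.16) for MUTE, which was not called.

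Among the 8 genes, 1 rose in H3K4me3 (12.7% of all genes did) and 2 fell (8.55% of all genes did). Those that fell, SPCH and SCRM2, reached the read minimum through leaf, so nothing is read from these counts. The gene that rose was TMM, which sat on the threshold. TMM (AT1G80080, chr1:30128005-30129591) had 98 H3K4me3 and 38 H3 reads in the culture, against 56 and 34 in leaf, and a change of 1.00 (0.19 to 1.81). Its call ended under 5 of 6 alternatives and its change was 0.05 without division by H3, since H3 over TMM was itself lower in the culture by 0.95. ICE1 and TMM were the 2 genes marked by H3K4me3 in the culture, where 29.2% of all genes were, and ICE1 and SCRM2 the 2 marked in leaf, where 22.8% were. The median change of the 8 was -0.49, beside 0.11 over all 20473 genes tested. ER had the lowest H3K4me3 level of the 8 in both samples, -1.63 in the culture and -1.33 in leaf, at percentile 2.18 in the culture and 5.65 in leaf. Levels cover the whole gene, and ER, ERL1 and ERL2 are 5788, 6211 and 5846 bp long, against 1586 bp for TMM. Between genes of unlike length, less mark at the start and a longer unmarked body cannot be told apart. In the culture ICE1 and TMM did not differ from each other beyond counting error, and TMM stood 1.62 (0.87 to 2.37) above ERL1. In leaf ICE1 stood 1.07 (0.17 to 1.96) above TMM, and no other neighbours in the order were apart.

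The peptide EPF2 (AT1G34245, chr1:12472868-12473754) is short and was read too thinly to place. It had 7 H3K27me3, 2 H3K4me3, 0 H3K9me2 and 5 H3 reads in the culture, against 1, 5, 0 and 5 in leaf.

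The 4 receptor genes were unmarked by H3K27me3 in both samples, at levels between -2.06 and 0.31 in the culture and between -1.25 and 0.68 in leaf. The median gene stood at -1.34 in the culture and -0.72 in leaf. With levels taken relative to it, ER counted as marked in the culture and ERL2 in leaf. TMM, which carries no kinase domain, had 16 H3K27me3 reads in the culture and 24 in leaf and a change of -0.99 (-2.10 to 0.11). ERL1 (AT5G62230, chr5:24996129-25002340) had 44 H3K27me3, 52 H3K4me3 and 63 H3 reads in the culture, against 34, 44 and 55 in leaf. Neither mark passed the threshold at ERL1, with changes of -0.11 (-0.93 to 0.71) for H3K27me3 and 0.40 (-0.37 to 1.18) for H3K4me3. ER (AT2G26330, chr2:11208183-11213971) had 185 H3K27me3 and 82 H3 reads in the culture, against 55 and 55 in leaf. Its H3K27me3 change of 0.88 (0.23 to 1.53) stayed under 2-fold, and passed once centred on the median gene (1.45).

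ERL2 (AT5G07180, chr5:2227571-2233417) was the 1 member that fell in H3K27me3, and that fall turned on H3. It had 205 H3K27me3 reads in the culture and 104 in leaf, with 237 H3 reads in the culture and 43 in leaf. The change was -1.75 (-2.32 to -1.17), at a level of -1.07 in the culture and 0.68 in leaf. Without division by H3 it was -0.41 (-0.75 to -0.08) and no longer a call. The H3K4me3 change at ERL2 was -0.80 (-1.44 to -0.16) over H3 and 0.53 (0.09 to 0.97) without it, so its direction depended on the divisor. The interval after ERL2 and the seed gene ATS3 beyond it were marked by H3K27me3 in both samples, the interval at 2.22 in the culture and 1.23 in leaf and ATS3 at 2.14 in the culture and 2.91 in leaf.

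H3 over ERL2 was higher in the culture by 1.33 (0.87 to 1.79), whereas the median gene stood at -0.29. Among genes with at least 5 leaf H3 reads, it lay in a run of 11, AT5G07100 to AT5G07200 (chr5:2204248-2245339, 41.1 kb), each with more H3 per 1000000 reads in the culture than in leaf. Their changes ran from 0.13 to 2.03 with a median of 1.33, and the next genes outward were at -0.67 before and -0.94 after. The run was delimited after its values were seen. Over the 25 genes within 50 kb of ERL2 the median was -0.27, close to the median gene, and 46.5% of 24304 genes with at least 8 such neighbours had a median at or above it. Over the 9 genes of the run with enough reads, the median H3K27me3 change was -0.60 over H3 and 0.96 without it. FAMA also stood in a stretch of higher H3, with 0.93 (0.23 to 1.64) at the gene and a median of 0.30 over 23 genes within 50 kb. H3 over MUTE was 0.85 (-0.27 to 1.97) higher, with its 27 neighbours at a median of -0.31. TMM (-0.95) and ERL1 (-0.91) stood below the median gene, with genes within 50 kb at a median of -0.45 around TMM and -0.87 around ERL1. Relative to the median gene, H3 was 1.22 higher over FAMA and 1.14 higher over MUTE. Why H3 differed was not tested.

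**Figure D3:**
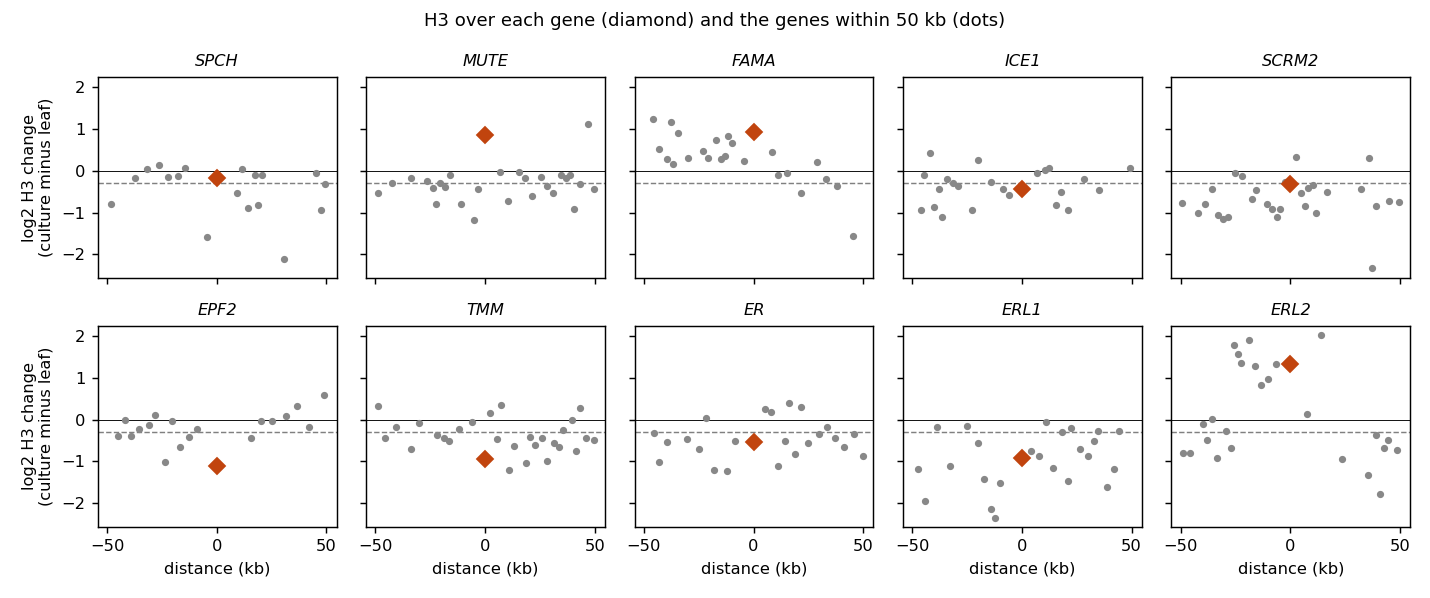
Change of H3 itself (log2 of reads per 1000000, culture minus leaf, y axis) over each of the 10 genes (diamond) and over the genes within 50 kb on each side (dots, x axis in kb); the dashed line is the median gene at -0.29. ERL2 sits in a block of raised genes with neighbours as high as 2.03, whereas MUTE at 0.85 stands above its neighbours but for 1 at 1.13.

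A ratio of H3K27me3 to H3K4me3 does not involve H3 and was computed after the values above were known. Its log2 was higher in the culture at SCRM2 by 2.23 (1.22 to 3.25), at SPCH by 1.32 (0.41 to 2.22), at ER by 1.18 (0.34 to 2.02) and at FAMA by 0.82 (0.08 to 1.56). It was lower in the culture at TMM, with a difference of -2.00 (-3.00 to -0.99), and at ERL2, with -0.94 (-1.50 to -0.38). The intervals of MUTE, ICE1, ERL1 and EPF2 included 0. The median over 19258 genes was -0.66, so ERL2 lay near the typical gene while SCRM2, SPCH, ER and FAMA lay on the other side of 0 from it. The ratio at SPCH was 4.38 in the culture and 3.06 in leaf, and at FAMA 4.55 in the culture and 3.73 in leaf, percentile 99.1 in the culture and 97.2 in leaf.

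**Figure D4:**
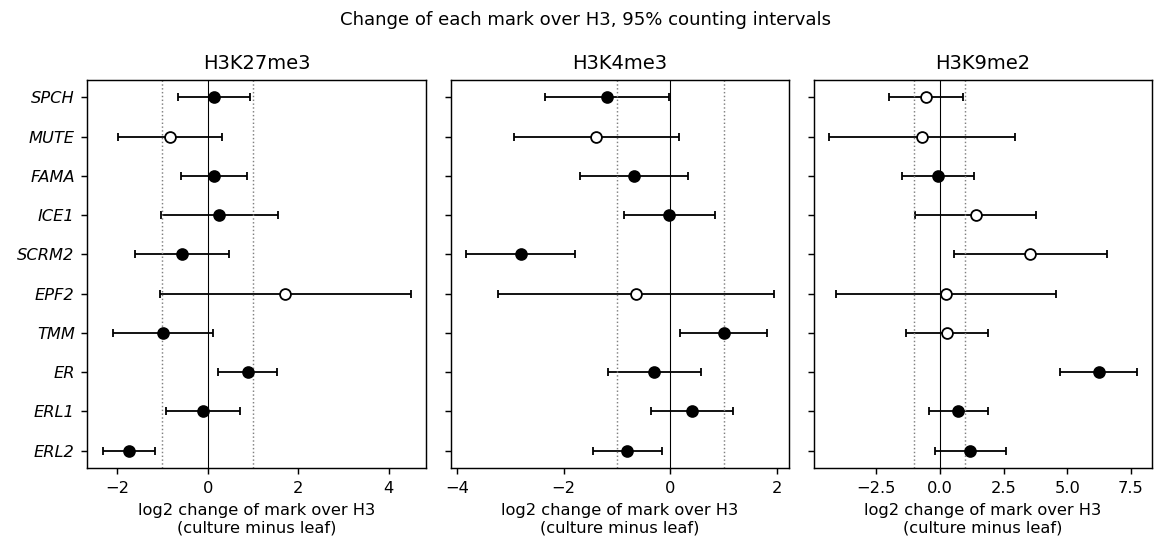
Change of each mark over H3 (log2, culture minus leaf, x axis) at the 10 genes with 95% counting intervals; dotted lines are 2-fold, and open points had too few reads for a call. SCRM2 in H3K4me3 (-2.80) and ER in H3K9me2 (6.24) lie farthest out among the genes called.

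The widest difference at any of the 10 genes was H3K9me2 over ER. ER had 373 H3K9me2 reads in the culture and 3 in leaf, with 82 H3 reads in the culture and 55 in leaf. The level was 2.11 (1.76 to 2.45) in the culture and -4.13 (-5.59 to -2.67) in leaf, and the rise was 6.24 (4.73 to 7.74), or 75.3-fold with the 3 leaf reads setting most of its error. It passed under each of the 6 alternatives, from 5.28 to 6.57. Of the 4 genes tested 1 rose, where 21.6% of all genes did, and none fell, where 10.7% did. ER, FAMA and ERL2 reached the read minimum through the culture, so nothing is read from these counts. ER was the 1 member marked by H3K9me2 in the culture, where 4.57% of all genes tested were, and no member was marked in leaf, where 3.63% were. In total 169 genes rose in H3K9me2 and were marked in the culture but not in leaf.

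Ranked by the low end of the interval, ER was number 14 of 6147 genes tested. Of the 13 above it, 12 had over 20 times the H3 reads per kb of the median gene in leaf, and among the 6124 genes without such H3 density ER was number 2. The level over ER stood at percentile 90.6 of 3462 transposable elements in the culture and 0.404 in leaf. Only genes and elements that passed the read minimum were ranked, and ER passed it through the culture. Nothing is therefore read from its rank or percentiles. The median element itself was at 0.25 in the culture and 1.76 in leaf. No interval next to ER came near it. Per kb and 1000000 reads, ER had 19.8 in the culture and 0.286 in leaf, and the highest of 14 other intervals around it had 4.62 in the culture and 1.95 in leaf. The other 25 genes within 50 kb had at most 18 H3K9me2 reads each in the culture and 13 in leaf. Counts over a whole gene do not show where within ER the reads lie.

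**Figure D5:**
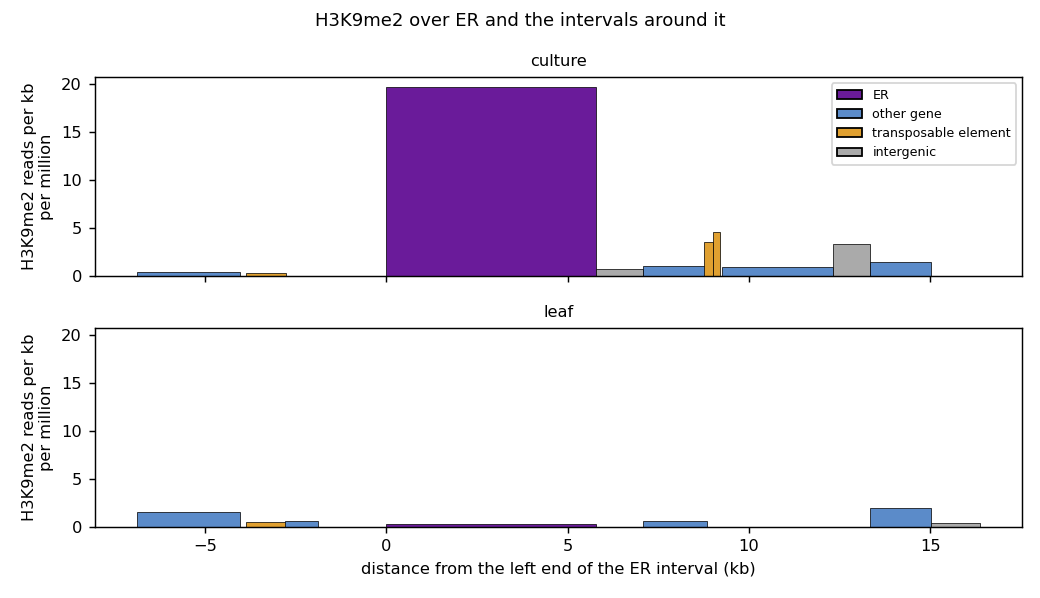
H3K9me2 reads per kb and 1000000 nuclear reads (y axis) over ER (purple) and the genes (blue), transposable elements (yellow) and intergenic intervals (grey) around it, by distance in kb from the left end of ER, in culture (top) and leaf (bottom). ER stands at 19.8 in the culture and 0.286 in leaf, and no other interval passes 4.62.

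At the other ERECTA family genes the H3K9me2 change over H3 did not pass. ERL1 had 18 H3K9me2 reads in the culture and 11 in leaf, a change of 0.73 (-0.44 to 1.89). ERL2 had 51 reads in the culture and 4 in leaf, a change of 1.20 (-0.20 to 2.60) over H3 and 2.53 (1.21 to 3.85) without it, in the run of genes with more H3 in the culture. ERL2 passed as a rise under 2 of 6 alternatives, without H3 and with library totals that leave out H3-dense intervals (1.53). ER stood 3.92 (3.11 to 4.74) above ERL1 in the culture, and in leaf no neighbours in the order of the 4 genes were apart. FAMA had 22 reads in the culture and 6 in leaf, a change of -0.06 (-1.47 to 1.35). The remaining 6 genes had too few reads. Of these, SCRM2 had 16 in the culture and 0 in leaf, SPCH had 10 in the culture and 9 in leaf, and TMM had 7 in the culture and 6 in leaf. ICE1 had 6 in the culture and 1 in leaf, and MUTE 1 in the culture and 0 in leaf.

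The rest of the pathway was read from a list of 29 further genes: peptides and a protease, co-receptors, the MAP kinase cascade, polarity factors and late division factors. In H3K27me3, 23 could be tested, 0 rose and 6 fell, or 26.1% beside the 26.7% of all genes, and their median was -0.39. EPFL5, a peptide related to EPF2, fell by 3.09 (-4.90 to -1.28), with 4 reads in the culture and 34 in leaf. SDD1, the protease that limits stomatal density, fell by 1.83 (-2.64 to -1.01). CRSP, a protease that cleaves EPF2, fell by 1.16 (-2.01 to -0.32), and YDA, the kinase at the head of the MAP kinase cascade, by 1.09 (-1.89 to -0.29). Centred on the median gene, CRSP was at -0.59 and YDA at -0.52, and neither call held. The peptide gene EPFL6, whose product acts through ERECTA kinases in the stem, was marked in both samples, at 2.09 in the culture and 1.62 in leaf.

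In H3K4me3, 24 of the 29 could be tested, 3 rose and 0 fell, or 12.5% risen beside 12.7% of all genes. EPFL5 rose by 2.32 (0.72 to 3.92), the co-receptor gene SERK1 by 1.26 (0.49 to 2.02) and the polarity gene BRXL2 by 1.06 (0.16 to 1.97). Without H3, SERK1 was at 0.93 and BRXL2 at 0.34, and centred BRXL2 was at 0.96, each under the threshold. EPFL5 reached the read minimum for H3K27me3 through leaf, and for H3K4me3 through the culture, with 34 reads there and 8 in leaf. Nothing is therefore read from its opposite calls in the 2 marks. Without H3 its H3K4me3 change was 1.22 (0.16 to 2.27). BRXL2 also fell in H3K27me3, by 1.45 (-2.72 to -0.18), a call lost when centred (-0.88). Of the 24 genes, 7 were marked by H3K4me3 in the culture and 5 in leaf, where 29.2% and 22.8% of all genes were. Of the 6 MAP kinase cascade genes tested, 5 were marked in the culture and 5 in leaf. Among them was MPK3 at 1.76 in the culture and 1.40 in leaf, while YDA was unmarked at -0.96 in the culture and -0.81 in leaf. These levels too cover the whole gene, and the part of gene length was not tested. In H3K9me2, 1 of 8 rose and 1 fell, 12.5% each, beside 21.6% risen and 10.7% fallen over all genes. The gene that rose was MYB88, which acts in the last division, with 47 reads in the culture and 0 in leaf, and the gene that fell was YDA, with 10 in the culture and 19 in leaf. MYB88 and YDA were named after their values were seen. MYB88 reached the read minimum through the culture alone, so nothing is read from its call.

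Lists of marker genes were read as a check of the sample labels, against 12.7% of all genes risen and 8.55% fallen in H3K4me3, and 29.2% marked in the culture and 22.8% in leaf. Of 4 photosynthesis genes tested for H3K4me3, 2 fell and 0 rose, and 2 were marked in the culture and 3 in leaf, so the mark was still present on part of the list in the culture. Of 4 cell cycle genes tested, 2 rose and 0 fell, and 2 were marked in the culture and 0 in leaf. Those that rose, CYCA1;1 and AUR1, reached the read minimum through the culture, so nothing is read from these counts. Of 3 mature guard cell genes tested, 1 fell and 0 were marked by H3K4me3 in either sample. The gene that fell, SLAC1, reached the read minimum through leaf, so nothing is read from its call. The part of cell mixture in the results above was not tested.

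Genes most like the 3 lineage factors were found by Euclidean distance over 4 values, the H3K27me3 and H3K4me3 levels in culture and leaf, among 19258 genes. Nearest to SPCH was CYP79F1, a glucosinolate synthesis gene, at a distance of 0.24, followed by AT4G19260 and AT5G24220. CYP79F1 had an H3K27me3 level of 3.16 in the culture and 3.02 in leaf and an H3K4me3 level of -1.39 in the culture and -0.19 in leaf. It has a close tandem copy, and reads shared with it are uncertain. Nearest to MUTE were AT5G04960 (0.22), AT1G15680 and the alpha-dioxygenase gene DOX1. The leaf levels of MUTE have standard errors of 0.52 for H3K27me3 and 0.65 for H3K4me3, larger than that distance. Nearest to FAMA were the zinc finger gene WIP5 (0.22), AT5G37870 and the bHLH gene BHLH32.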

How the data were processed

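The libraries are chromatin immunoprecipitations of an Arabidopsis Col-0 suspension cell culture and of Col-0 leaf, 1 per antibody and sample type. Per the submitters' processing notes, Bowtie2, bedtools and the TAIR10 genome were used (versions not given). How duplicates and reads with several map positions were treated is not given in the sources used here.

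Raw counts make up the deposited files, whole reads over each of 109972 annotated intervals, made by the authors without strand or position inside a gene. Here, 1 was added to each count, counts were scaled to 1000000 nuclear reads, and log2 of mark over H3 was taken. Change is culture minus leaf. Standard errors came from the counts by the delta method, and intervals are at 95%. They cover counting error only. Calls needed 20 mark reads over both libraries, 10 reads in each H3 library, a 2-fold change and an interval without 0. The procedure was tested on counts simulated with counting error alone. That checks the formulas and does not cover variation between preparations. Of the other stomatal pathway genes, those called were named, at most 4 per mark and direction, by the interval end nearer 0. Members and lists were chosen with earlier results of these data known. Symbols came from RefSeq (all 10 matched). Python 3.11.15, numpy 2.4.6, pandas 2.3.3 and matplotlib 3.10.9 were used. Alternatives were division by no H3, a pseudocount of 5, a 3-fold threshold, totals without H3-dense intervals, centring on the median gene, and no read minimum.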

Additional observations from a re-analysis of the deposited data

How the results depend on the processing

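No paired analysis was possible because there is 1 library per group. The rise of ER in H3K9me2 (5.28 to 6.57 over 6 alternatives) and the fall of SCRM2 in H3K4me3 (-3.11 to -2.49) passed under all 6. Without H3 as divisor, 1 of the 10 genes rose in H3K27me3 (FAMA) and 2 fell (TMM and ERL1), 0 rose in H3K4me3, and 2 rose in H3K9me2 (ER and ERL2). Of the other pathway genes, 5 then fell in H3K4me3 and 2 in H3K9me2. Centring on the median gene gave 1 member risen in H3K27me3 (ER), 0 risen in H3K4me3, and among the other pathway genes 2 risen and 2 fallen in H3K27me3 and 2 fallen in H3K9me2. With a pseudocount of 5 or a 3-fold threshold, 0 members rose and 1 fell in H3K4me3 (SCRM2). Leaving H3-dense intervals out of the totals gave 0 risen in H3K4me3 and 2 in H3K9me2 (ER and ERL2). With no read minimum 2 rose in H3K9me2 (ER and SCRM2). Members marked by H3K27me3 numbered 3 in the culture and 3 in leaf with levels relative to the median gene. Members marked by H3K4me3 numbered 0 in the culture with levels relative to the median gene, and 0 in the culture and 0 in leaf at 3-fold. The cause of these shifts was not tested. Depth limits MUTE and EPF2, with 7 and 5 leaf H3 reads, and H3K9me2 at 6 of the 10 genes. With 1 library on each side, differences between preparations cannot be told apart from differences between culture and leaf.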

Other observations

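Of 5 mature guard cell genes, 3 could be tested for H3K27me3. Of these 1 was marked, in both samples, where 11.9% of all genes were in the culture and 19.4% in leaf. None rose and 1 fell, where 26.7% of all genes fell, and 3 genes are too few to set against these shares. The marked gene was TGG1, a myrosinase abundant in guard cells, with 1025 H3K27me3 reads in the culture and 275 in leaf. Its level was 3.31 in the culture and 3.14 in leaf, with a change of 0.17 (-0.58 to 0.92). SCAP1, a transcription factor of guard cell maturation, had 177 reads in the culture and 166 in leaf, with 5 H3 reads in the culture, too few for a call. KAT1, a potassium channel gene, was unmarked at -1.64 in the culture and -0.36 in leaf and fell by 1.27 (-2.09 to -0.46), a call lost when centred on the median gene (-0.70). SLAC1, an anion channel gene, was unmarked at -1.76 in the culture and -0.65 in leaf. MYB60, under the read minimum, was at -1.04 in the culture and 0.75 in leaf. From the pathway list, EPF1, a peptide of the later lineage, had 75 H3K27me3 reads in the culture and 67 in leaf and levels of 1.48 in the culture and 2.34 in leaf, also under the read minimum.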
